A study of Gallus gallus with 6 samples.

Results

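In the developing chicken (Gallus gallus) hearing organ, 4 genes of the collagenous matrix were followed: the fibrillar collagen genes COL1A2, COL5A1 and COL5A2, and LUM, which encodes lumican. These 4 genes are a part of 15955 genes in the deposited count table, of which 12133 had enough counts to be tested. They were taken by name from the authors' deposited tables of genes called changed between the same 2 groups that are compared here. They were thus chosen by the fold changes and p-values of that contrast, and their differences between groups are a description of these libraries and not a test. Basilar papillas, the auditory sensory organs of birds, were taken for RNA sequencing at embryonic day 6. Infection of the right otocyst, the embryonic ear vesicle, was done at embryonic day 3. The control group received RCAS(A), the parent virus, a replication-competent avian retrovirus, and the other group RCAS(A)-Wnt9a, the form that carries Wnt9a, so that all samples were infected and none was uninfected. Each group held 3 biological replicates, numbered 2, 3 and 4 for RCAS(A) and 1, 2 and 3 for RCAS(A)-Wnt9a, and each replicate was RNA pooled from 24 papillas. The aim given for the series is to find genes downstream of Wnt9a.

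Fibrillar collagens are secreted as triple helices that pack into the banded fibrils of connective tissue. Type I collagen, whose alpha 2 chain comes from COL1A2, is the bulk component of these fibrils in skin, tendon, bone and loose mesenchyme. Type V collagen, built from the chains encoded by COL5A1 and COL5A2, is a minor partner that nucleates type I fibrils and limits their diameter. Lumican is a small leucine-rich proteoglycan that binds the fibril surface and is best known for the ordered fibrils of the cornea. In the inner ear, collagens lie beneath and around the sensory epithelium, in the basilar membrane, the capsule and the periotic mesenchyme.

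The libraries held between 19200235 and 23017150 counts, and libraries of one group had r = 0.994 to 0.997 with each other over genes, on a log2(CPM + 1) scale. WNT9A, carried by the virus, was at 7.90, 6.87 and 10.3 CPM (counts scaled to library size) in RCAS(A) replicates 2, 3 and 4 and at 1340, 539 and 427 CPM in RCAS(A)-Wnt9a replicates 1, 2 and 3. SOX2 and ISL1, markers of the sensory epithelium chosen after their values were seen, had counts in every library and fell with RCAS(A)-Wnt9a. ISL1 is also a marker of ganglion neurons. Other markers of prosensory and supporting cells went the other way, as PAX2, FGF3 and FGF19 rose. SOX2 averaged 70.3 CPM in RCAS(A) and 50.3 CPM in RCAS(A)-Wnt9a, and ISL1 146 and 103 CPM (adjusted p = 0.0122 and 0.0030, edgeR). A symbol could be paired with a gene identifier only for genes in the authors' tables, 490 in all, so most collagens and most markers of any cell type were not looked up here.

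In the RCAS(A)-Wnt9a pools COL5A1 and COL5A2, whose products assemble with each other, lay on opposite sides of the control level. COL5A1 and COL1A2 were fitted at 1.21-fold and 1.22-fold their RCAS(A) level, COL5A2 at 0.836-fold and LUM at 0.697-fold. In each of the 4 genes the libraries of one group lay wholly outside the range of the other, as they did for 19.0% of all tested genes. Of tested genes, 9.82% had separate libraries with the RCAS(A)-Wnt9a group higher, as COL1A2 and COL5A1 did, and 9.16% with it lower, as COL5A2 and LUM did. Only LUM passed the threshold of the main fit (quasi-likelihood test of edgeR, p adjusted by Benjamini-Hochberg over all tested genes and under 0.05), which 2.27% of tested genes passed. All 4 passed with DESeq2 and with the exact test of edgeR, which called 3.59% and 4.14% of tested genes. Because the same contrast chose the 4 genes, nothing is read from these counts. CPM values above and below were scaled between libraries by the trimmed mean of M-values, and fold changes are RCAS(A)-Wnt9a over RCAS(A).

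**Figure D1:**
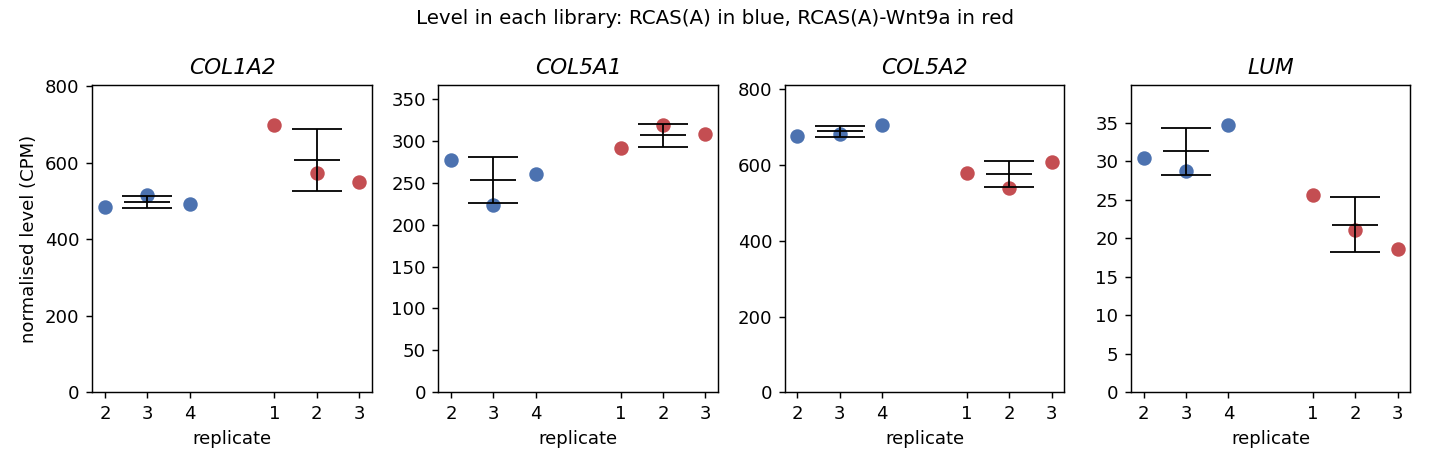
Normalised level (y axis, CPM) of the 4 genes in each library (x axis, replicate number), with RCAS(A) in blue, RCAS(A)-Wnt9a in red and the mean ± SD of each group of 3 in black. COL1A2 and COL5A1 sit higher and COL5A2 and LUM lower in the red libraries, with no overlap between groups.

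COL1A2 (ENSGALG00000009641; chromosome 2, 23702023 to 23740814, galGal4 build) encodes the second chain type of type I collagen. Its level was 484, 515 and 492 CPM in RCAS(A) replicates 2, 3 and 4 and 698, 574 and 549 CPM in RCAS(A)-Wnt9a replicates 1, 2 and 3. The control libraries were close together, and RCAS(A)-Wnt9a replicate 1, the library with the most WNT9A, stood well above the other two of its group. The group values were 497 ± 16.2 and 607 ± 80.0 CPM (SD, n = 3 per group), which is 0.29 (SE 0.08) on the log2 scale. It did not pass the threshold (edgeR adjusted p = 0.114). Without RCAS(A)-Wnt9a replicate 1 the log2 fold change was 0.18, and without replicate 3 of that group it was 0.36 and passed (edgeR adjusted p = 0.0368).

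COL5A1 (ENSGALG00000002546; chromosome 17, 7462509 to 7561096) encodes the alpha 1 chain of type V collagen, whose large amino-terminal propeptide is kept on the fibril surface. It was at 277, 223 and 261 CPM in RCAS(A) replicates 2, 3 and 4, and at 292, 319 and 309 CPM in RCAS(A)-Wnt9a replicates 1, 2 and 3. The groups were separated by only the gap between 277 and 292 CPM, and the lowest value was that of RCAS(A) replicate 3. The means were 254 ± 27.6 and 307 ± 13.7 CPM (SD, n = 3 per group). Their difference of 0.27 (SE 0.08) on the log2 scale did not pass the threshold (edgeR adjusted p = 0.102).

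COL5A2 (ENSGALG00000002509; chromosome 7, 447685 to 556916) encodes the alpha 2 chain that pairs with the COL5A1 product in type V collagen. Its level was 678, 684 and 706 CPM in RCAS(A) replicates 2, 3 and 4 and 580, 540 and 607 CPM in RCAS(A)-Wnt9a replicates 1, 2 and 3. Every RCAS(A)-Wnt9a library lay under every control, and the controls varied by only 2.18% (coefficient of variation). The means were 689 ± 15.0 and 576 ± 33.8 CPM (SD, n = 3 per group), and the fitted log2 fold change was -0.26 (SE 0.06). It came close to the threshold without passing it (edgeR adjusted p = 0.0567), and passed it without RCAS(A)-Wnt9a replicate 3 (log2 fold change -0.30, edgeR adjusted p = 0.0292).

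LUM (ENSGALG00000011271; chromosome 1, 43860882 to 43872867) was the least abundant of the 4 genes. It was at 30.4, 28.7 and 34.7 CPM in RCAS(A) replicates 2, 3 and 4 and at 25.6, 21.1 and 18.6 CPM in RCAS(A)-Wnt9a replicates 1, 2 and 3. All RCAS(A)-Wnt9a libraries were lower than the lowest control, and the one nearest to the controls was replicate 1, which held the most WNT9A. The means were 31.3 ± 3.10 and 21.7 ± 3.57 CPM (SD, n = 3 per group). LUM fell by 0.52 on the log2 scale (SE 0.12, adjusted p = 0.0375 in the edgeR fit). LUM missed the threshold without RCAS(A) replicate 2, 3 or 4 (edgeR adjusted p = 0.113, 0.0586 and 0.177) and without RCAS(A)-Wnt9a replicate 2 or 3 (edgeR adjusted p = 0.150 and 0.0825). The depth behind it was 350 to 705 counts per library, for which counting error alone is at most 5.35%, against coefficients of variation of 9.91% and 16.4% between pools. For the collagen genes, with 4875 to 15696 counts per library, counting error was at most 1.43%.

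**Figure D2:**
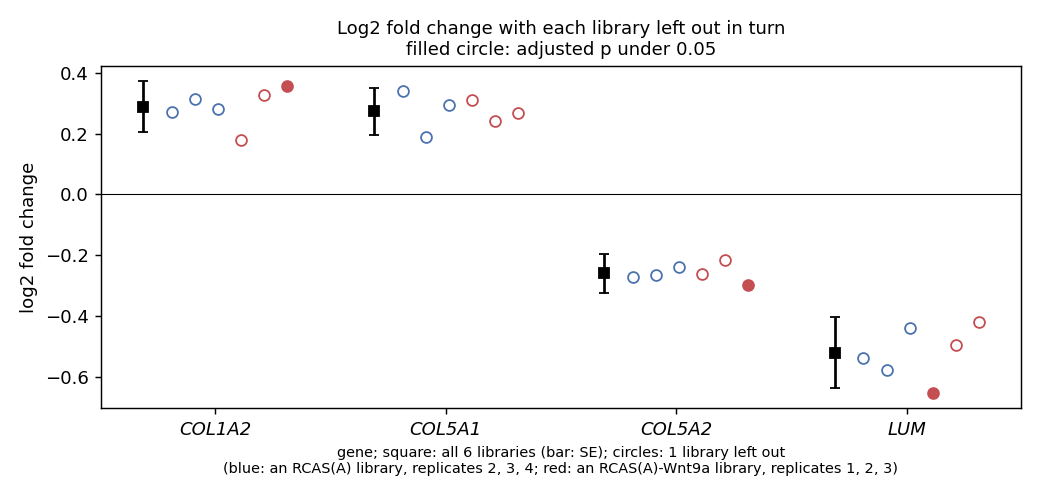
Log2 fold change (y axis) of each gene with all 6 libraries (square, bar 1 SE) and with each library left out in turn (circles, blue for an RCAS(A) and red for an RCAS(A)-Wnt9a library, filled where adjusted p is under 0.05). The values stay on 1 side of 0, between 0.18 and 0.36 for COL1A2 and between -0.65 and -0.42 for LUM, and LUM is filled only without RCAS(A)-Wnt9a replicate 1.

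As the tissue is measured in bulk, fewer cells of a type and less RNA per cell cannot be told apart in any of these values. Ratios of counts between genes of one library do not depend on how libraries are scaled. For COL5A1 over COL5A2 the ratio was 0.409, 0.326 and 0.370 in RCAS(A) replicates 2, 3 and 4, and 0.503, 0.590 and 0.508 in RCAS(A)-Wnt9a replicates 1, 2 and 3. The counts of these type V chain genes stood at a mean ratio of 0.368 ± 0.041 in the controls and 0.534 ± 0.049 with RCAS(A)-Wnt9a (SD, n = 3 per group), with no overlap. For COL1A2 over COL5A2 the mean ratio was 0.722 ± 0.029 in the controls and 1.06 ± 0.150 with RCAS(A)-Wnt9a (SD, n = 3 per group), again without overlap. COL1A2 over COL5A1, by contrast, averaged 1.98 ± 0.29 and 1.99 ± 0.35 (SD, n = 3 per group), with overlapping libraries. The lack of overlap in the ratios over COL5A2 was fixed beforehand, as COL5A1 and COL1A2 were higher and COL5A2 lower in every RCAS(A)-Wnt9a library. These ratios use the contrast that chose the genes and are given without a test.

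**Figure D3:**
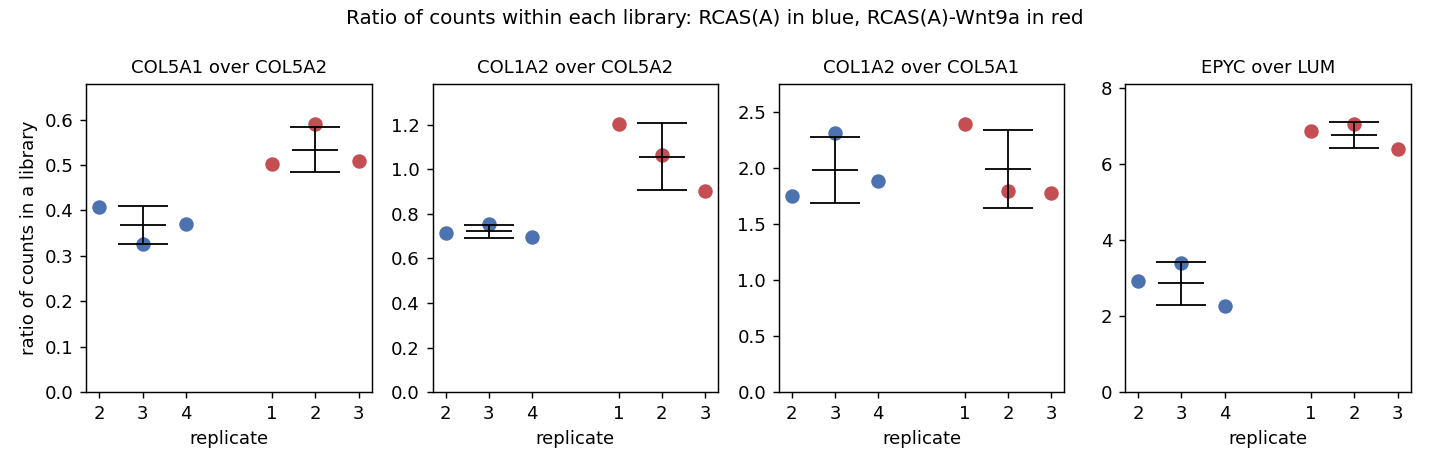
Ratio of counts of 2 genes within each library (y axis) by replicate number (x axis), with RCAS(A) in blue, RCAS(A)-Wnt9a in red and the mean ± SD of each group of 3 in black. COL5A1 over COL5A2, COL1A2 over COL5A2 and EPYC over LUM are higher in every red library, as the separate libraries of each gene require. COL1A2 over COL5A1 overlaps.

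Levels of different genes were compared per transcript length, with the authors' pooled fragments per kilobase scaled to library size (FPKM), which carry 1 value and a pair of confidence bounds for each group. No source used here gives the level of these bounds, and whether they overlap is a description and not a test. In RCAS(A), COL1A2 and COL5A2 had nearly the same level, 117 FPKM (bounds 97.1 to 137) and 116 FPKM (95.5 to 136), followed by COL5A1 at 46.1 FPKM (38.3 to 53.8) and LUM at 19.8 FPKM (15.9 to 23.7). In RCAS(A)-Wnt9a the order was COL1A2 at 144 FPKM (119 to 169), COL5A2 at 96.7 FPKM (79.6 to 114), COL5A1 at 56.0 FPKM (46.6 to 65.4) and LUM at 13.9 FPKM (10.9 to 16.8). The bounds of COL1A2 and COL5A2 overlapped almost entirely in RCAS(A) and not at all in RCAS(A)-Wnt9a. The direction of this split was fixed beforehand, as the contrast that chose the genes had COL1A2 higher and COL5A2 lower. The other neighbours in the order had separate bounds in both groups.

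Dividing the CPM of each library by the length implied by these FPKM values gave the spread over libraries. The group means return close to the FPKM by construction, so this is no separate check of the order or of the split. On that scale COL1A2 was at 114 to 122 CPM per kb in RCAS(A) and COL5A2 at 114 to 119, with interleaved libraries, while in RCAS(A)-Wnt9a they were at 130 to 165 and 90.8 to 102 CPM per kb. COL5A1 was at 40.6 to 50.4 CPM per kb in RCAS(A) and 53.1 to 58.1 in RCAS(A)-Wnt9a, under COL5A2 in every library. The implied length was 4.25 kb for COL1A2, 5.94 kb for COL5A2, 5.51 kb for COL5A1 and 1.58 kb for LUM in RCAS(A). By FPKM in RCAS(A), COL1A2 and COL5A2 exceeded 95.3% and 95.2% of the 15793 listed genes, COL5A1 exceeded 84.6% and LUM 65.7%.

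**Figure D4:**
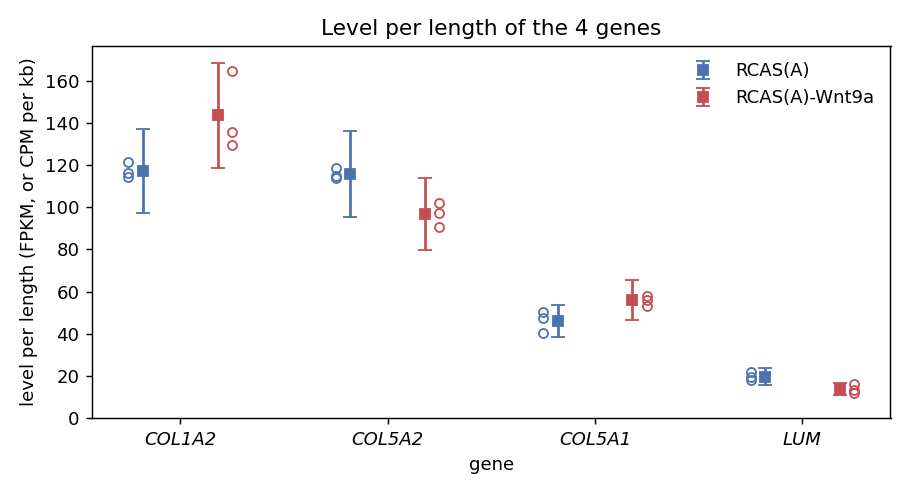
Level per length (y axis) of the 4 genes by group. Squares are the authors' pooled FPKM with their confidence bounds and open circles the CPM per kb of each library. COL1A2 and COL5A2 coincide near 117 and 116 FPKM in RCAS(A) and stand apart at 144 and 96.7 FPKM in RCAS(A)-Wnt9a, as the choice of the genes requires. The circles lie around the squares by construction.

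The authors' own values differ in size between their edgeR and DESeq2 tables. For COL5A2, the authors' deposited table of edgeR calls lists -0.26 on the log2 scale (FDR 0.0103) and their DESeq2 table -0.24 (adjusted p = 0.00286). For LUM the authors' deposited table of edgeR calls lists -0.52 (FDR 0.00298) and their DESeq2 table -0.38 (adjusted p = 0.00309). COL1A2 and COL5A1 had an FDR of 0.0425 and 0.0434 in the authors' deposited table of edgeR calls and adjusted p of 0.0178 and 0.0254 in the authors' deposited table of DESeq2 calls. The same libraries underlie these values. The DESeq2 fit made here gave a log2 fold change of -0.52 for LUM. For WNT9A the authors' DESeq2 table lists 0.41 and their edgeR calls 6.52, and for TECTB -0.26 and -4.13. The cause of the smaller values in the authors' DESeq2 table was not tested.

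Whether the 4 genes varied together inside a group was not used to choose them, although the spread of each gene enters the p-values that were. After the group mean of log2 CPM was taken out, COL1A2 and LUM deviated together over the 6 libraries (r = 0.74), while COL1A2 and COL5A1 deviated in opposite directions (r = -0.54). COL5A2 had r = -0.06 with COL1A2, -0.15 with COL5A1 and -0.06 with LUM, and COL5A1 with LUM gave r = 0.03. These are descriptions over 6 libraries, in each of which all 4 genes were read from the same RNA pool at the same depth. In RCAS(A)-Wnt9a replicates 1 and 3 COL1A2 deviated by 0.21 and -0.14 and LUM by 0.25 and -0.21 on the log2 scale. Without replicate 1 of that group the r of COL1A2 and LUM was -0.09, so it rests on that library. The r of COL1A2 and COL5A1 stayed between -0.75 and -0.49 with any 1 library left out, and was -0.40 when scaled by library size alone. How many other pairs of genes reach such an r was not counted. The values near 0 also rest on single libraries. Without RCAS(A)-Wnt9a replicate 3, COL5A2 had r = 0.80 with COL1A2 and 0.92 with LUM, and without replicate 2 of that group r = -0.72 with COL1A2 and 0.21 with COL5A1. COL5A1 with LUM gave r = -0.76 without RCAS(A) replicate 3 and 0.53 without RCAS(A)-Wnt9a replicate 1.

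Among 454 other genes with a symbol and a mean log2 CPM of at least 1, the patterns most like each gene over the 6 libraries included the group difference, since the authors' calls named all candidates. COL1A2 was most like PDZRN4 (r = 0.98), PDGFRA (r = 0.96), a growth factor receptor of mesenchyme, and SCIN (r = 0.96). COL5A1 was most like PPP1R9A (r = 0.98), PTPRT (r = 0.98) and EP300 (r = 0.97). COL5A2 was most like ME3, ARHGAP8 and BASP1, with r = 0.996, 0.99 and 0.99, and LUM most like FRMD1 (r = 0.97), the Notch effector HES5 (r = 0.96) and HSPA12A (r = 0.95).

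With the group means taken out, the closest named genes were GRHL1, PDZRN4 and LEF1 for COL1A2 (r = 0.96, 0.95 and 0.94), and AMPD3, EP300 and PPP1R9A for COL5A1 (r = 0.99, 0.96 and 0.95). They were ME3, ARHGAP8 and ANKRD50 for COL5A2 (r = 0.97, 0.95 and 0.93), and FGF3, LRRC45 and WNT9A for LUM (r = 0.97, 0.96 and 0.96). LUM was lower in the group with more WNT9A, yet inside the groups it was higher in the pools with more of it. With so few libraries such values were not unique to the named genes: 57 of 12127 tested genes had a higher r with LUM than WNT9A had. For GRHL1 with COL1A2, AMPD3 with COL5A1, ME3 with COL5A2 and FGF3 with LUM, that number was 35, 10, 44 and 36.

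The neighbours of LUM on chromosome 1 gave a local contrast. In the GRCg7b assembly of RefSeq, LUM lies in a row with the proteoglycan genes EPYC, KERA and DCN. EPYC (ENSGALG00000011269; chromosome 1, 43798642 to 43821219 in galGal4), which encodes epiphycan, a small leucine-rich proteoglycan of cartilage, ends 39.7 kb before LUM. It was at 89.0, 97.4 and 78.2 CPM in RCAS(A) replicates 2, 3 and 4 and at 176, 148 and 119 CPM in RCAS(A)-Wnt9a replicates 1, 2 and 3. All RCAS(A)-Wnt9a libraries were above all controls, as for 9.82% of tested genes, the reverse of LUM. EPYC, which is among the authors' calls, had a log2 fold change of 0.74 (SE 0.15) that did not pass the threshold (edgeR adjusted p = 0.0626). It passed without RCAS(A)-Wnt9a replicate 1 (log2 fold change 0.60, edgeR adjusted p = 0.0125) or replicate 3 (0.88, edgeR adjusted p = 0.00183), and with DESeq2 and limma-voom (adjusted p = 6.02e-08 and 0.00924). The counts of EPYC over those of LUM had a mean ratio of 2.86 ± 0.57 in the controls and 6.77 ± 0.34 with RCAS(A)-Wnt9a (SD, n = 3 per group). The gene listed between them (ENSGALG00000011270), to which the files give no name, had a log2 fold change of 0.06 (SE 0.10), and the next gene on the far side of LUM one of 0.01 (SE 0.07). For the collagen genes, the nearest listed genes on each side had log2 fold changes of 0.08 (SE 0.10) and 0.10 (SE 0.07) around COL1A2, -0.06 (SE 0.10) and 0.13 (SE 0.07) around COL5A1 and 0.02 (SE 0.06) and -0.19 (SE 0.19) around COL5A2. Among the first and second listed neighbours of all 4 genes that had a value, only GULP1 passed the threshold, which 2.27% of all tested genes passed. GULP1, an engulfment adaptor gene, begins 192 kb past COL5A2 and, like EPYC, is named here by the authors' calls. The log2 fold change of GULP1 was 0.42 (SE 0.08, adjusted p = 0.0160 with edgeR), opposite in sign to COL5A2. No listed gene overlapped any of the 4.

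Other genes of the collagen matrix were read through lists of 163 genes besides these 4, of which 14 had a name and a value. Of these 14, 4 rose, 2 fell and 8 missed the threshold (edgeR quasi-likelihood test, adjusted p under 0.05), against 1.43% of all tested genes that rose and 0.841% that fell. Their median log2 fold change was 0.39, against -0.0037 over all tested genes. As the authors' calls on these libraries gave these genes their names, neither count nor median is independent evidence of a direction.

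Among the other collagens, COL9A1, a chain of the type IX collagen that coats cartilage fibrils, rose. It was at 453, 509 and 470 CPM in RCAS(A) replicates 2, 3 and 4 and at 587, 582 and 579 CPM in RCAS(A)-Wnt9a replicates 1, 2 and 3, or 0.29 higher on the log2 scale (SE 0.06; adjusted p = 0.0286, edgeR). Its call was lost without RCAS(A) replicate 2 or 4 or RCAS(A)-Wnt9a replicate 1 or 2, with edgeR adjusted p of up to 0.174. COL9A3, another type IX chain, had a log2 fold change of 0.37 (SE 0.15) with overlapping groups. Without RCAS(A) replicate 3 it was 0.57 and passed the threshold (edgeR adjusted p = 0.00342). COL11A1, whose chain is the cartilage counterpart of type V and can assemble with the COL5A2 product, was at 640 to 658 CPM in RCAS(A) and at 736 to 738 CPM in RCAS(A)-Wnt9a, and its log2 fold change, 0.18 (SE 0.06), missed the threshold (edgeR adjusted p = 0.166). COL5A2 was the one named collagen of 6 with a negative log2 fold change, and collagens outside the authors' calls were not looked up. In the GRCg7b assembly of RefSeq, the collagen gene COL3A1 lies between COL5A2 and GULP1. The unnamed gene listed in that place in galGal4 had a log2 fold change of -0.19 (SE 0.19). Whether that gene is COL3A1 was not checked.

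The named genes of the list for collagen synthesis and processing, P4HA3 and TLL2, both lay on the negative side and missed the threshold of the main fit. Both passed with DESeq2 (adjusted p = 0.0187 and 0.0345), the exact test of edgeR (adjusted p = 0.0344 and 0.0236) and the replicate block, and missed with limma-voom (adjusted p = 0.104 for each). P4HA3, a catalytic subunit of the prolyl hydroxylase that stabilises the collagen helix, had a log2 fold change of -0.62 (SE 0.21; adjusted p = 0.240 with edgeR) with overlapping groups. It passed without RCAS(A)-Wnt9a replicate 2 (-0.91, edgeR adjusted p = 0.0117). TLL2, a protease of the tolloid family that trims matrix precursors, stood at -0.40 (SE 0.10, edgeR adjusted p = 0.0775). ECM2, a leucine-rich matrix protein gene listed with the proteoglycans, had a log2 fold change of 0.48 (SE 0.17) with overlapping groups. It was 0.29 without RCAS(A)-Wnt9a replicate 2, and 0.62 and past the threshold without replicate 1 (edgeR adjusted p = 0.0476).

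Among genes for fibril-associated and assembly proteins, HAPLN1, the link protein of the hyaluronan network, and TGFBI, a collagen-binding adhesion protein, rose by 0.49 and 0.41 on the log2 scale. THBS1, the multidomain matrix glycoprotein thrombospondin, averaged 555 ± 29.2 CPM in RCAS(A) and 439 ± 49.6 CPM in RCAS(A)-Wnt9a (SD, n = 3 per group) and fell by 0.34 on the log2 scale (adjusted p = 0.0478, edgeR), and SPARCL1, a matricellular protein, fell by 2.62. CCN2, formerly CTGF, a matricellular protein of the CCN family, rose by 0.40. HAPLN1 and SPARCL1 passed with each library left out. The calls of TGFBI and CCN2 were lost without RCAS(A) replicate 2 or 4 or RCAS(A)-Wnt9a replicate 2, with edgeR adjusted p of up to 0.0993 and 0.124, and that of THBS1 without any single library other than RCAS(A)-Wnt9a replicate 3, with edgeR adjusted p of up to 0.214. THBS1 also missed the threshold with limma-voom, with DESeq2 size factors and with a CPM of at least 2 in 3 libraries (adjusted p = 0.0552, 0.0523 and 0.0511).

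**Figure D5:**
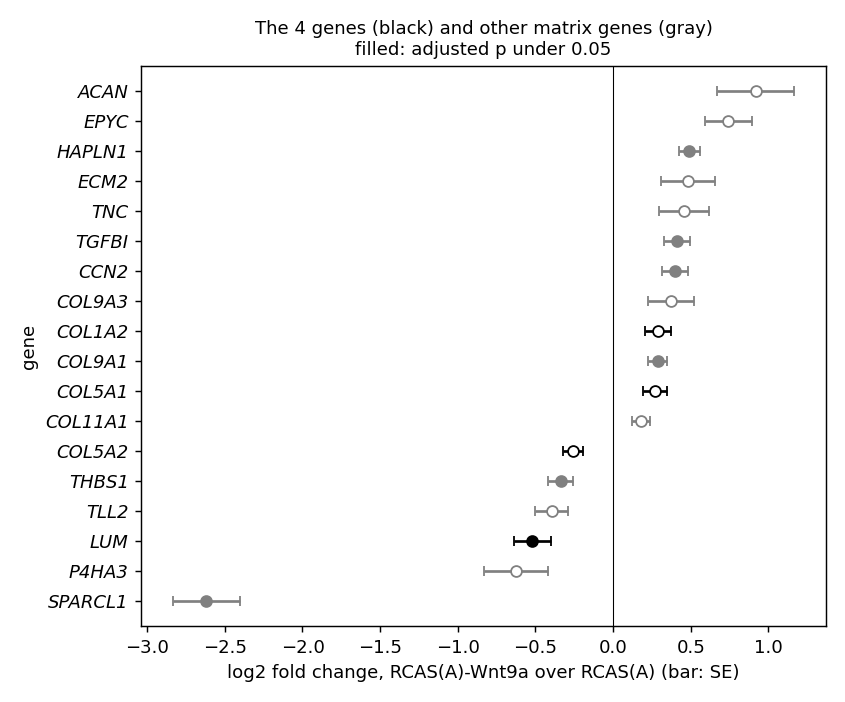
Log2 fold change (x axis, bar 1 SE) of the 4 genes in black and the 14 other named matrix genes in gray, filled where adjusted p is under 0.05. COL5A2 and LUM lie left of 0 with THBS1, TLL2, P4HA3 and SPARCL1, and COL1A2 and COL5A1 lie right of it among the other collagens.

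Markers of cell types in and around the papilla had a value only where the authors' calls named them, so their counts are no independent evidence of a direction. Over all tested genes 1.43% rose and 0.841% fell. In the cartilage list 4 of 13 genes had a value, 2 of them rose and 2 missed the threshold, and their summed level was 649 to 757 CPM in RCAS(A) and 845 to 890 CPM in RCAS(A)-Wnt9a. In the periotic mesenchyme list 3 of 20 had a value, PRRX1 rose and TBX18 and PDGFRA missed the threshold, and the sum was 379.9 to 419 CPM in RCAS(A) and 456 to 501 CPM in RCAS(A)-Wnt9a. In the skeletal muscle list 5 of 14 had a value, TNNC2 fell and 4 missed the threshold, and the sum was 45.0 to 68.8 CPM in RCAS(A) and 30.6 to 33.0 CPM in RCAS(A)-Wnt9a. The single tendon and fibroblast marker with a value, MKX, was at 5.92 to 12.2 CPM in RCAS(A) and at 15.6 to 18.8 CPM in RCAS(A)-Wnt9a and missed the threshold (edgeR adjusted p = 0.0755).

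In the hair cell list 4 of 17 genes had a value, 3 fell and 1, PCDH15, missed the threshold (edgeR adjusted p = 0.0702). PCDH15 went the other way, with 10.2 to 11.7 CPM in RCAS(A) and 12.9 to 18.2 CPM in RCAS(A)-Wnt9a. The sum of the hair cell list was 93.8 to 96.0 CPM in RCAS(A) and 65.7 to 78.0 CPM in RCAS(A)-Wnt9a. In the prosensory and supporting cell list 9 of 17 had a value, 5 fell, 3 rose and 1 missed the threshold, and the sums overlapped, at 450 to 479 CPM in RCAS(A) and 449 to 468 CPM in RCAS(A)-Wnt9a. Both genes of the ganglion neuron list with a value, ISL1 and NTRK2, of 12 listed, fell, with sums of 225 to 261 CPM in RCAS(A) and 165 to 179 CPM in RCAS(A)-Wnt9a. The lists of glia and neural crest, endothelium and blood had 1 value each, CDH19, FLT1 and TFRC, and all 3 rose. In the otic acellular matrix list 3 of 10 had a value: TECTB fell, ZPLD1 rose and OTOA missed the threshold. Its sum was 410 to 431 CPM in RCAS(A) and 235 to 329 CPM in RCAS(A)-Wnt9a. None of these markers was at 0 in all libraries, though MYOD1 had no count in RCAS(A)-Wnt9a replicate 3. COL1A2 and COL5A1 lay on the same side as the cartilage and mesenchyme sums and as MKX, CDH19, FLT1 and TFRC. COL5A2 and LUM lay on the side of the hair cell, ganglion neuron, muscle and otic acellular matrix sums. Most of the cartilage sum came from COL9A1, of the muscle sum from TNNC2 and of the ganglion neuron sum from ISL1, also a prosensory gene. The mesenchyme sum came mostly from TBX18 and PDGFRA and the otic acellular matrix sum mostly from OTOA, all of which missed the threshold. Any gene that differs must lie on either side, so nothing is read from a shared side. The part of these tissues in the results was not tested.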

How the data were processed

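RNA of 6 pools of chicken basilar papillas was sequenced, with groups and replicate numbers taken from the sample titles. Per the submitters' processing notes, TopHat2, edgeR, DESeq and DESeq2 were used with the galGal4 build. How reads were counted, with which annotation and whether by strand, is not given in the sources used here. The deposited counts are whole numbers for Ensembl genes, between 19200235 and 23017150 per library. The authors' deposited tables of calls hold, per the file headers, log2 fold changes, a mean normalized signal, a Wald score and p-values, and the authors' FPKM table holds 1 pooled value per group with bounds, so it was not tested.

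The 4 genes and the gene lists were chosen with earlier results of these data known. Symbols came from the authors' deposited tables (490 of 522 genes) and were matched to RefSeq names of GRCg7b, 150 of them by accession. Genes kept by filterByExpr (12133 of 15955) were scaled by TMM and then fitted in edgeR 4.0.16 (robust glmQLFit, two-sided glmQLFTest, Benjamini-Hochberg over all tested genes) in R 4.3.3. The procedure was also run on simulated data, with a pass mark set only on changes much larger than those of the 4 genes. The SE is the log2 fold change divided by the square root of F. An exact permutation test of 3 against 3 cannot go below 0.1. Replicates are separate pools. Alternatives were DESeq2 1.42.0, limma-voom (limma 3.58.1), edgeR's exact test, other scalings and filters, a replicate block and leaving out each library. A fit of replicates 2 and 3 without the block was added after the data were seen. Besides WNT9A and the 4 genes, the named genes are all measured collagens and small leucine-rich proteoglycans, up to 4 called genes (or 2 uncalled ones) of each other matrix list, and the 3 most alike genes per measure. ACAN and TNC, and the cell type markers, are shown as list members, and SOX2, ISL1 and the neighbouring genes were chosen after their values were seen. Sequences were not used here.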

Additional observations from a re-analysis of the deposited data

How the results depend on the processing

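The 4 genes kept the sign of their log2 fold change in every alternative fit, as genes with separate libraries nearly must. The number past the threshold, 1 of 4 in the edgeR quasi-likelihood fit, was 4 in DESeq2 and 4 in the exact test of edgeR. It was 2 with every gene of at least 1 count and 2 with the replicate block. In DESeq2 the log2 fold changes were 0.29 for COL1A2, 0.28 for COL5A1 and -0.26 for COL5A2, and in the exact test 0.29, 0.27 and -0.26, all past the threshold. COL5A2 also passed with library size alone (-0.26) and with every gene of at least 1 count (-0.26), and LUM missed it with library size alone (-0.52, adjusted p = 0.0594). The number of changed genes, 276, became 435 with DESeq2, 502 with the exact test and 506 with the replicate block, and the number of the 14 other matrix genes past the threshold, 6, became 13, 11 and 12. The causes were not tested.

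With 1 library left out, the log2 fold change was 0.18 to 0.36 for COL1A2, 0.19 to 0.34 for COL5A1, -0.30 to -0.21 for COL5A2 and -0.65 to -0.42 for LUM. The number of the 4 genes past the threshold was 0 to 2, of matrix genes 2 to 8, lowest without RCAS(A) replicate 2 or 4, and of changed genes 146 to 294, lowest without RCAS(A) replicate 4. Correlations inside groups moved widely: -0.75 to -0.49 for COL1A2 and COL5A1, -0.72 to 0.80 for COL1A2 and COL5A2, -0.0891 to 0.92 for COL1A2 and LUM, -0.55 to 0.21 for COL5A1 and COL5A2, -0.76 to 0.53 for COL5A1 and LUM, and -0.31 to 0.92 for COL5A2 and LUM. With library size alone the r of COL1A2 and COL5A1 was -0.40. Of these 6 correlations only that of COL1A2 and COL5A1 kept its sign.

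The titles share only the numbers 2 and 3 and do not say whether a shared number pairs the pools. The deviations of the libraries with those numbers had r = -0.01 and 0.26 over genes. These values cannot decide it, as each deviation is taken from a group mean that includes an unshared number. The replicate block fit used the 4 libraries numbered 2 and 3 and gave log2 fold changes of 0.17 for COL1A2, 0.34 for COL5A1 (past the threshold), -0.25 for COL5A2 and -0.57 for LUM. With so few libraries for the terms fitted, its calls rest largely on the variability estimated over all genes. The same 4 libraries without the block gave 225 changed genes, 1 of the 4 genes and 4 of the 14 matrix genes past the threshold, against 506, 2 and 12 with it. The reference transcript length was not run as an alternative, as no transcript lengths were used here.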
